A study of Mus musculus with 14 samples.

Results

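The 37 genes described here encode proteins of complement and of blood clotting, and were taken as a list of symbols that each matched 1 of the 55416 gene identifiers in the deposited tables. The list holds 19 complement genes and 18 genes of clotting, its inhibitors and fibrinolysis. The series, which seeks targets for cachexia and for immune side effects in muscle, sequenced bulk RNA of lung and of gastrocnemius, a muscle of the calf. The 14 libraries fall into 5 of tumour-bearing lung (labelled TB), 3 of control lung (CON), 3 of tumour-bearing muscle and 3 of control muscle. All groups are from male C57BL/6 mice (C57BL/6NCrlOri) aged 6 to 8 weeks. Tumour-bearing mice had KrasIKKaL cells injected into the trachea; the labels leave the treatment of control mice unstated. RNA of injected cells and of the host cannot be told apart in a tumour-bearing lung library. Whether each library is a different mouse is also unstated. The p-values below therefore reflect the variation among these libraries, part of which may be technical.

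Complement is a cascade of plasma proteins that marks surfaces for uptake and can puncture membranes. It starts from C1q and C1r (classical pathway), from lectins and MASP proteases, or from factor B and factor D (alternative pathway). All routes meet at C3 and end in a pore built from C5b to C9, while C1 inhibitor, factor I, CD55 and CD59 hold it in check. Clotting runs from tissue factor and factor VII through factors X and V to thrombin, which turns fibrinogen into fibrin, and plasminogen activators later dissolve the clot. The liver makes most of the plasma proteins of both systems, and lung and muscle cells make some of them locally, which is the RNA measured here.

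Fgb, a fibrinogen chain, and C7, a pore component, gave the largest changes of the list in lung, in opposite directions, so their upstream sequences are shown with those of the other fibrinogen chains. Of the 37 genes, 28 had a promoter window in RefSeq (GRCm38.p6). Printed below are the 250 bases before each start, 5′ to 3′ on the gene's own strand. Capitals mark CTGGGA, the core of an interleukin-6 response element of fibrinogen promoters, searched on both strands (TCCCAG when read on the other strand).
Fga, chr3:83025903-83026152, plus strand: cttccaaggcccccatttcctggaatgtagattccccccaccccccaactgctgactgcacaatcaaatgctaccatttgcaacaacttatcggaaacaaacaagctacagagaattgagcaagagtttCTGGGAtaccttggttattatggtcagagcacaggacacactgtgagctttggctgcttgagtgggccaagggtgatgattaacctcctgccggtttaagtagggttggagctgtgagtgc
Fgb, chr3:83049864-83050113, minus strand: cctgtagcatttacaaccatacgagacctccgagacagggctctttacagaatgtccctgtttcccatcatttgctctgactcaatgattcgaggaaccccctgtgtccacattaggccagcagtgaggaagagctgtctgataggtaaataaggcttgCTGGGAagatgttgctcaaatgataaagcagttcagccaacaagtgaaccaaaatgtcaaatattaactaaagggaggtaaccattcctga
Fgg, chr3:83007474-83007723, plus strand: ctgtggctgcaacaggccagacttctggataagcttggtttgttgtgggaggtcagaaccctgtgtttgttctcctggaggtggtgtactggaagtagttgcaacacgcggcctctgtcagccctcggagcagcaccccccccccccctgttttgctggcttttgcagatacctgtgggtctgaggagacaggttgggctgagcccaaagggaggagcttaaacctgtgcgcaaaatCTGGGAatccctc
C7, chr15:5063774-5064023, minus strand: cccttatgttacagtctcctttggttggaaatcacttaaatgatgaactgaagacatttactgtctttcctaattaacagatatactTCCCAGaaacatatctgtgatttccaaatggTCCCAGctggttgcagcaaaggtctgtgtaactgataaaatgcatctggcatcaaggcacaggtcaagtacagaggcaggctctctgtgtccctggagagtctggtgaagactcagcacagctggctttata

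The core was in all 3 fibrinogen windows, beginning 121 bases before the start of Fga, 91 before that of Fgb and 13 before that of Fgg. C7, whose RNA moved the other way, held it as well, at 163 and at 132 bases, and the window of F2, prothrombin, which rose with fibrinogen, did not hold it. Over 32851 RefSeq mouse windows, 27.0% held the core. Of the 28 members with a window, 30 windows in all, 12 held it in any of theirs. The member count is per gene and the share is per window, so their bases differ. A match describes these letters only and is not a binding site. Fgg, Fga and Fgb lie next to each other on chromosome 3 with no protein-coding gene between them in the RefSeq order.

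Per-length levels, in the authors' TPM, show which members dominated each group. In tumour-bearing lung the highest were Plaur, the urokinase receptor, at 160 ± 66.7 TPM, Cfb, complement factor B, at 142 ± 108 TPM, and Plat, tissue plasminogen activator, at 134 ± 94.2 TPM (mean ± SD, n = 5 each). Control lung was led by Serping1, C1 inhibitor, at 375 ± 44.6 TPM, then F3, tissue factor, at 185 ± 27.5 TPM, and C3, the protein on which all routes meet, at 171 ± 31.3 TPM (n = 3 each). Mean TPM was higher in muscle than in lung for 4 of the 37 members among the tumour-bearing groups (C7, Cd59a, Cfd and Serping1) and for 2 among the controls (Cd59a and Plau). These orders by TPM were not tested. Between the controls, 9 of the 33 members called in the test of TMM-scaled counts given last took the other order there. Cd55, C3ar1 and F2, which were not called, did so too, with log2 values of -0.14, -0.21 and -1.34. Tumour-bearing muscle was led by Serping1 at 24.8 ± 7.14 TPM and C1qb, a C1q chain, at 13.4 ± 3.82 TPM (n = 3 each). Control muscle was led by Cd59a, which blocks pore formation, at 23.6 ± 5.01 TPM and Cfd, factor D, at 22.6 ± 5.38 TPM (n = 3 each). These first places do not differ beyond the spread: Plaur, Cfb and Plat overlap in tumour-bearing lung, as do Cd59a and Cfd in control muscle, while Serping1 stood above every F3 and C3 value in control lung. On CPM, counts scaled to a common library size with TMM and not per length, 4 of the 5 leading members of tumour-bearing lung and 5 of the 5 of control lung were the same, against 3 of the 5 in either muscle group. Together the 37 genes held 0.154% to 0.222% of counts in tumour-bearing lung and 0.274% to 0.303% in control lung, against 0.0239% to 0.0258% in tumour-bearing muscle and 0.0285% to 0.0352% in control muscle.

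In tumour-bearing lung, the terminal pore components C7 and C6, the C1 inhibitor gene Serping1 and the early classical genes C4b and C1ra fell, while factor B, factor I, prothrombin, the 3 fibrinogen chains and the plasminogen activator genes rose. Each change is a log2 ratio, tumour-bearing to control, given with its standard error (SE) and taken from edgeR's quasi-likelihood test with Benjamini-Hochberg adjustment over all genes tested and a threshold of 0.05. All 37 members were tested, and 11 were higher, 13 lower and 13 did not pass. That is 64.9% of the members, near the 59.7% called among all 19300 genes tested in lung (30.4% higher and 29.3% lower), so the count itself is no result about these genes. Of the 19 complement genes, 2 were higher and 9 lower, and of the 18 clotting genes, 9 were higher and 4 lower. The median log2 fold change was 0.22 over the members and 0.07 over all genes, and on log2(TPM + 1) these were -0.39 and -0.23. The groups did not overlap in 23 of the 37 members, 9 higher and 14 lower, against 63% of all genes tested (30.9% higher and 32.1% lower). Of the 24 calls, 16 held under all 15 alternatives tried, and none of the 24 turned its direction under any.

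**Figure D1:**
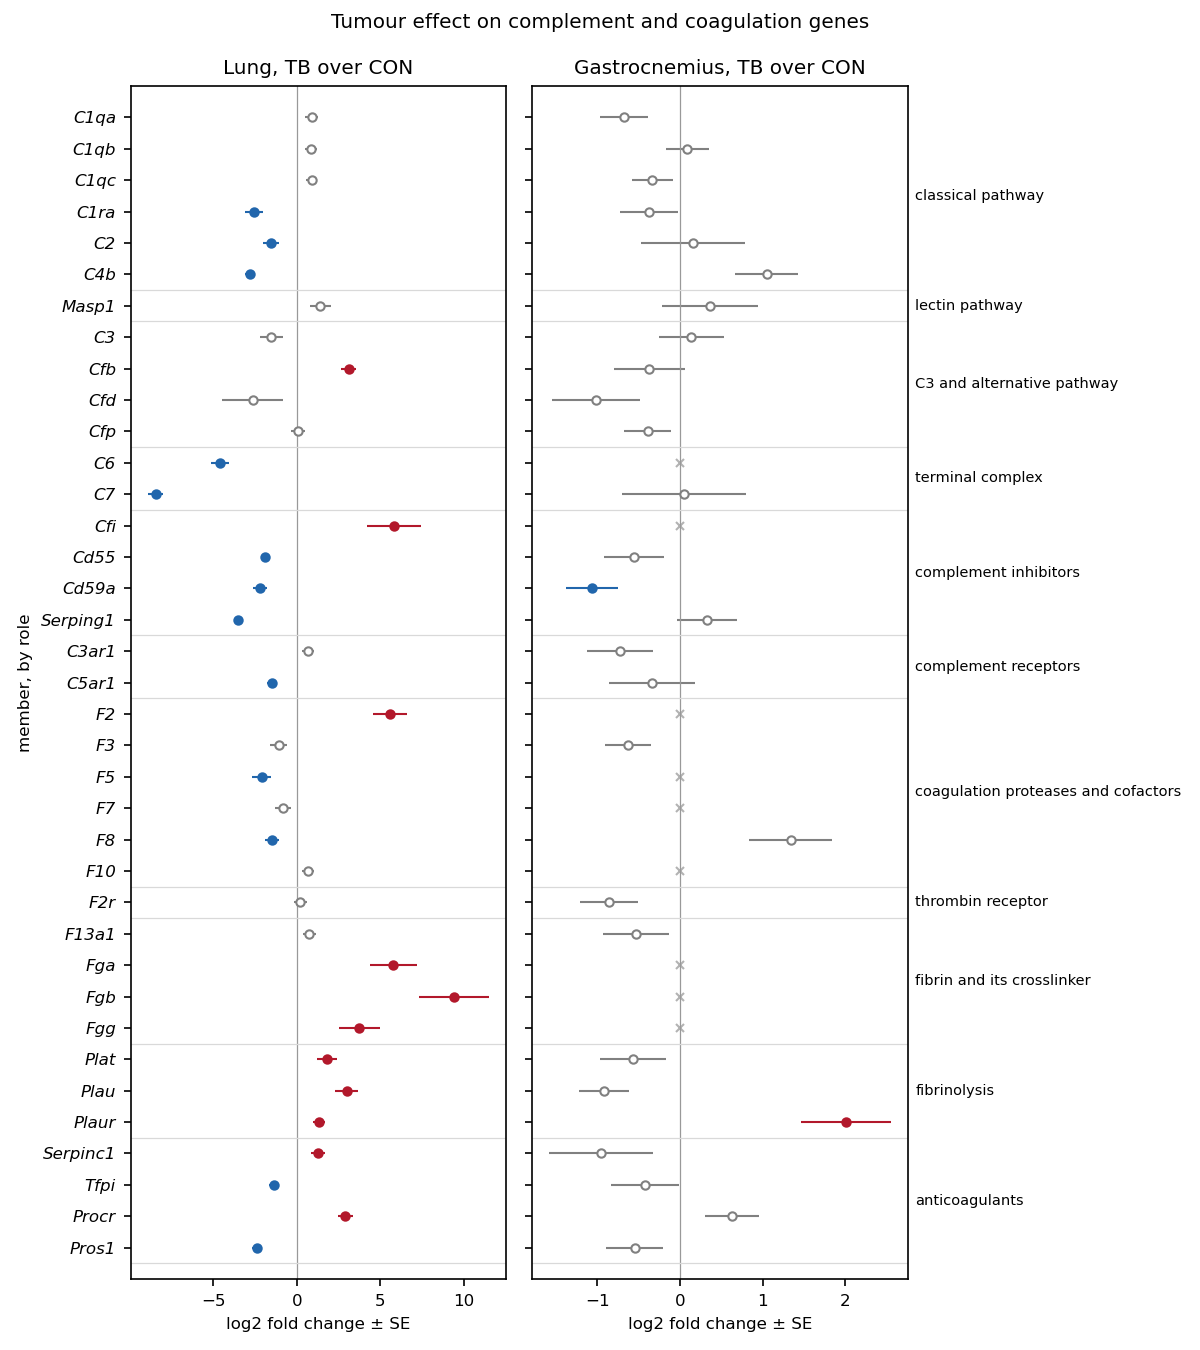
Log2 fold change, tumour-bearing (TB) to control (CON), with its standard error for the 37 members by role, in lung (5 and 3 libraries) and in gastrocnemius (3 and 3); filled red and blue points are higher and lower at an adjusted p below 0.05, open points did not pass, grey crosses at 0 were not tested, and the axes of the panels differ in range. Lung effects run from -8.45 (C7) to 9.43 (Fgb), while in muscle 2 of 28 tested members are filled.

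Marker RNA of several cell types in the lung libraries moved with these changes. Summed markers of endothelium were 116 to 150 CPM in tumour-bearing lung and 2680 to 2836 in control lung, with 7 of 7 markers lower. Those of alveolar type 2 cells were 141 to 1095 CPM in tumour-bearing and 21508 to 23448 CPM in control lung, again with 7 of 7 lower, so the defining epithelium of the labelled tissue was scarce in the RNA of the tumour-bearing libraries. General epithelial markers were 12813 to 23607 CPM in tumour-bearing and 1549 to 1565 CPM in control lung, with 6 of 6 higher. Macrophage and monocyte markers summed to 348 to 741 CPM in tumour-bearing and 4827 to 5003 CPM in control lung, with 1 of 10 higher and 5 lower. The median log2 change of these markers was -0.94, so their sums do not stand for the typical marker. Fibroblast markers summed to 420 to 1468 and 1451 to 1539 CPM, with 5 of 9 lower. Alveolar macrophage, neutrophil and mesothelial markers moved in part, with 0 of 6, 1 of 8 and 1 of 4 higher and 3, 3 and 2 lower. Alveolar macrophage sums were 171 to 1190 CPM in tumour-bearing and 356 to 1210 CPM in control lung. Neutrophil sums were 55.2 to 155 and 79.4 to 155 CPM. Mesothelial sums were higher, at 144 to 533 against 25.9 to 57.3 CPM, although the median log2 change of these markers was -2.78. Platelet markers summed to 15.9 to 53.8 CPM in tumour-bearing and 52.1 to 130 CPM in control lung, with 5 of 6 lower. The part of these shifts in the results below was not tested, and in bulk RNA fewer cells of a type cannot be told apart from less RNA per cell.

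Among the classical pathway genes in lung, 3 of 6 fell and none rose. C4b encodes complement C4, which C1s cleaves. It had 23.9, 34.9, 22.9, 19.8 and 16.1 CPM in tumour-bearing lungs, against 214, 142 and 142 CPM in control lungs. Every tumour-bearing value was below every control value, and the change was -2.82 (SE 0.26, adjusted p = 2.9e-05). Its near-identical copy C4a had 9.22 ± 5.23 CPM in tumour-bearing (n = 5) and 0.669 ± 0.203 CPM in control lung (n = 3), a change of 3.78 (SE 0.55, adjusted p = 0.000375). Reads of such copies may be divided between them in error, so both values are uncertain. C1ra, the protease C1r that activates C1s, had 31.3, 8.55, 25.04, 10.7 and 5.11 CPM in tumour-bearing lungs, against 110, 87.1 and 89.8 CPM in control lungs, again without overlap (change -2.56, SE 0.53, adjusted p = 0.0026). Its reads may likewise be divided in error with its copy C1rb, so these values are uncertain too. C2, whose product joins C4b in the C3 convertase, had 5.77, 6.13, 2.28, 9.54 and 1.96 CPM in tumour-bearing lungs, against 18.3, 12.4 and 13.4 CPM in control lungs. Its change of -1.52 (SE 0.49, adjusted p = 0.0237) was no longer called without control 1 (-1.32, adjusted p = 0.0917) or control 3 (-1.59, adjusted p = 0.051).

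The 3 genes of C1q, the recognition molecule that macrophages make, did not pass in lung, with changes of 0.89 for C1qa, 0.86 for C1qb and 0.89 for C1qc (SE 0.38, 0.38 and 0.35, adjusted p = 0.0702, 0.0815 and 0.0549). C1qa had 59.1, 99.8, 113, 58.8 and 30.0 CPM in tumour-bearing lungs, against 38.5, 40.7 and 37.2 CPM in control lungs. In 4 tumour-bearing libraries it exceeded every control, and in library 5 it was below all of them; C1qb and C1qc showed the same split. Without library 5 all 3 were called, at 1.12, 1.10 and 1.11 (adjusted p = 0.00702, 0.00262 and 0.00456). These genes lie side by side on chromosome 4. Masp1, a protease of the lectin pathway, ranged from 2.14 to 23.7 CPM in tumour-bearing and from 3.32 to 4.05 CPM in control lung and did not pass (1.42, SE 0.65, adjusted p = 0.0885; 1.71, adjusted p = 0.0179, without tumour-bearing library 2).

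Of the alternative pathway genes, 1 of 4 was called. Cfb, factor B, had 388, 192, 126, 202 and 103 CPM in tumour-bearing lungs, against 27.6, 21.2 and 21.1 CPM in control lungs. The lowest tumour-bearing value was far above the highest control (change 3.12, SE 0.45, adjusted p = 0.000383). Cfb and C2 are neighbours in the genome with no protein-coding gene between them. In the GENCODE M21 annotation both overlap a same-strand gene, Gm20547, yet the measured changes of Cfb and C2 had opposite signs. C3 had 556, 85.1, 94.6, 230 and 49.7 CPM in tumour-bearing lungs, against 686, 535 and 526 CPM in control lungs. It did not pass (-1.52, SE 0.68, adjusted p = 0.0826): library 1 reached the control range and the other 4 lay below it. Without library 1 it was -2.32 (SE 0.48, adjusted p = 0.00401). Cfp, properdin, which stabilises the alternative convertase, showed 0.08 (SE 0.40, adjusted p = 0.878).

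Cfd, factor D, the protease that cleaves factor B and that fat cells make in large amounts, had 0.0327, 14.3, 0.153, 0 and 0 CPM in tumour-bearing lungs, against 15.0, 19.5 and 19.4 CPM in control lungs. All 5 tumour-bearing values were below all 3 controls, but library 2 came close to them, and the change did not pass (-2.64, SE 1.81, adjusted p = 0.236). Without library 2 it was -8.37 (SE 0.83, adjusted p = 8.93e-05), so that library decided the call. A count of 0 allows up to 3 counts, here at most 0.0626 CPM in a lung library. Adipoq, a hormone of fat cells, showed the same library: 3.81 CPM in tumour-bearing library 2 and 0.0170 to 0.0654 CPM in the other 4, against 2.02 to 2.704 CPM in control lungs. Retn, another marker, was also highest there among the tumour-bearing lungs, at 0.317 CPM against 0 to 0.0734 CPM in the other 4, while control lungs had 1.26 to 1.55 CPM. Plin1 had 0.0198 CPM in library 2 and 0 to 0.0164 CPM in the other 4, at most 1 count in each, and Lep had 0 in all 5. Cidec and Lipe were not highest in library 2. Cidec had 1.88 CPM there and 1.11 to 8.24 CPM in the other 4. Lipe was lowest there, at 11.1 CPM against 15.0 to 30.2 CPM. Over the whole list 4 of 5 tested markers were lower, with sums of 17.1 (library 2) to 33.8 CPM in tumour-bearing and 82.9 to 97.2 CPM in control lung. The part of fat cells in the Cfd values was not tested.

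Both members of the terminal pore fell. C7, which anchors the growing complex in the membrane, had 0.327, 0.655, 1.16, 0.641 and 0.220 CPM in tumour-bearing lungs, against 232, 199 and 210 CPM in control lungs. It ranked 4 among the members per length in control lung, and its change was -8.45 (SE 0.48, adjusted p = 2.74e-06), the most negative of the list. C6, which binds C5b before C7 does, had 1.96, 0.714, 2.81, 0.704 and 0.514 CPM in tumour-bearing lungs, against 35.7, 30.8 and 31.9 CPM in control lungs (change -4.60, SE 0.55, adjusted p = 0.000125). In the RefSeq order, 1 protein-coding gene separates C6 from C7 on chromosome 15.

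**Figure D2:**
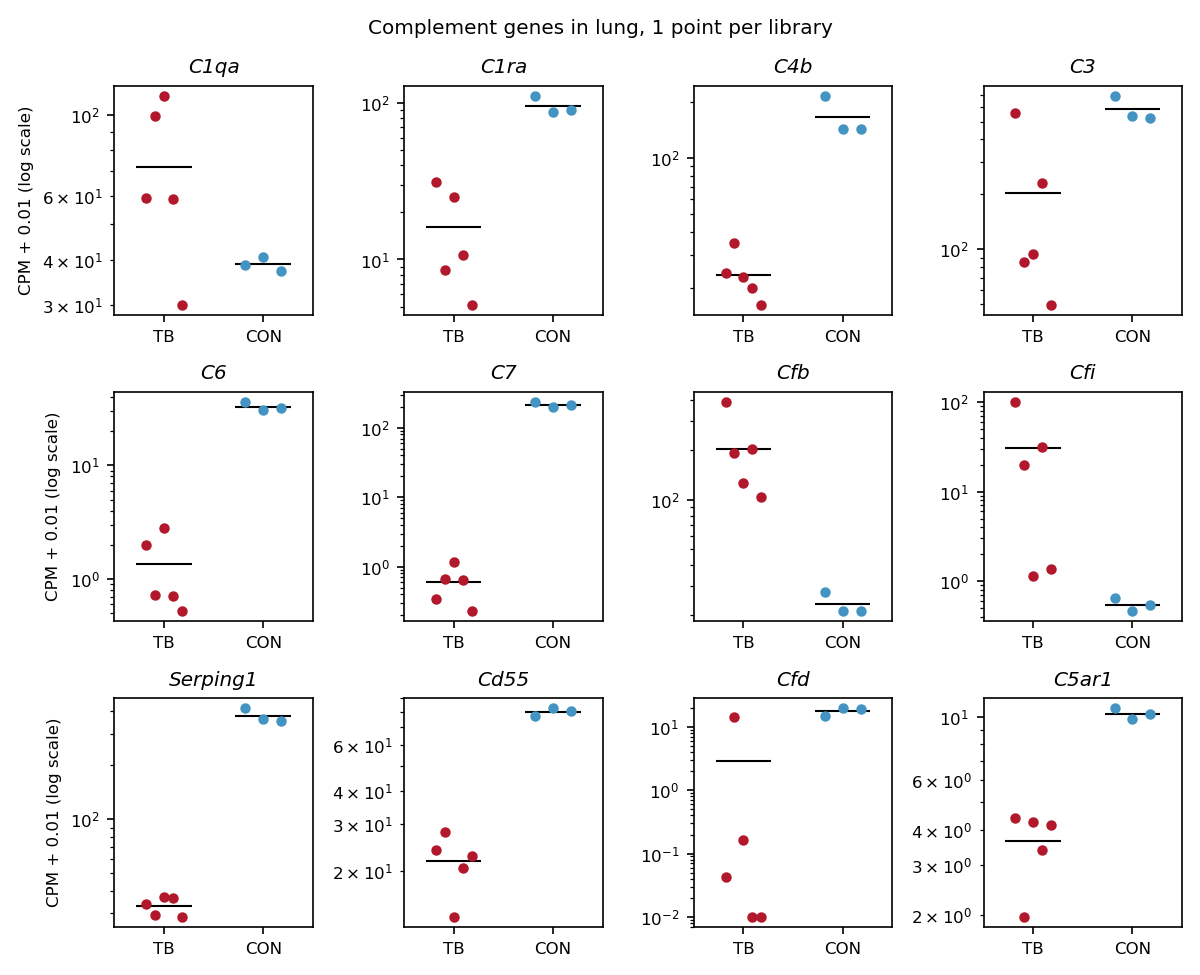
CPM plus 0.01 on a log axis for 12 complement genes in the 5 tumour-bearing (TB) and 3 control (CON) lung libraries, 1 point per library with a line at the mean of each group; axes differ between genes. C7, C6, Serping1, C4b, C1ra, Cd55 and C5ar1 lie below the controls in every tumour-bearing library, Cfb and Cfi above them, and C1qa and C3 overlap.

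Among the complement inhibitors in lung, 3 of 4 fell and 1 rose. Serping1, which encodes the inhibitor of C1r and C1s and of the contact proteases, had 34.0, 29.4, 36.9, 36.5 and 28.6 CPM in tumour-bearing lungs, against 414, 361 and 351 CPM in control lungs. This was the tightest member among the tumour-bearing libraries, with a highest value 1.29 times the lowest, and the change was -3.50 (SE 0.15, adjusted p = 9.98e-07). Cd55, which dismantles the C3 convertase on cells, had 23.9, 28.1, 13.4, 20.5 and 22.8 CPM in tumour-bearing lungs, against 77.0, 82.2 and 80.3 CPM in control lungs (change -1.88, SE 0.22, adjusted p = 0.000101). Reads may be divided in error between Cd55 and its copy Cd55b, so these values are uncertain. Cd59a had 9.34, 3.99, 3.25, 3.99 and 2.49 CPM in tumour-bearing lungs, against 30.6, 17.3 and 15.3 CPM in control lungs, also without overlap (change -2.19, SE 0.43, adjusted p = 0.00216). Its copy Cd59b changed by -3.36 (SE 0.71, adjusted p = 0.00301) at 0.137 ± 0.150 CPM in tumour-bearing (n = 5) and 1.47 ± 0.185 CPM in control lung (n = 3).

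Cfi, factor I, the plasma protease that cuts C3b and C4b, went against the other inhibitors. It had 98.95, 19.8, 1.12, 31.5 and 1.37 CPM in tumour-bearing lungs, against 0.634, 0.454 and 0.526 CPM in control lungs. All 5 tumour-bearing values were above the controls but spread over 88.0 times from lowest to highest. The change was 5.82 (SE 1.61, adjusted p = 0.012), and 4.66 without tumour-bearing library 1 (adjusted p = 0.0164). On log2(TPM + 1) with limma the call was lost (2.51, adjusted p = 0.0804). Of the receptors, C5ar1, which binds the inflammatory fragment C5a, fell, with 4.38, 1.96, 4.26, 3.39 and 4.16 CPM in tumour-bearing lungs, against 10.7, 9.81 and 10.2 CPM in control lungs (change -1.49, SE 0.29, adjusted p = 0.0018). C3ar1, which binds C3a, did not pass (0.66, SE 0.35, adjusted p = 0.126), but did without tumour-bearing library 2 (0.84, adjusted p = 0.0363).

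Of the clotting proteases and cofactors in lung, 1 of 6 rose and 2 fell. F2, prothrombin, had 7.88, 8.51, 1.74, 28.4 and 3.72 CPM in tumour-bearing lungs, against 0.228, 0.219 and 0.181 CPM in control lungs. Every tumour-bearing library was above every control (change 5.57, SE 1.015, adjusted p = 0.00136, and 4.71 without tumour-bearing library 4, adjusted p = 0.000655). F5, the cofactor of factor Xa, had 1.52, 5.67, 3.63, 2.61 and 0.881 CPM in tumour-bearing lungs, against 6.83, 15.4 and 14.7 CPM in control lungs (change -2.10, SE 0.55, adjusted p = 0.00943). F8, the cofactor of factor IXa that endothelium makes, had 1.13, 0.516, 1.70, 0.766 and 0.563 CPM in tumour-bearing lungs, against 2.83, 2.81 and 2.32 CPM in control lungs. Its change of -1.50 (SE 0.42, adjusted p = 0.0134) was no longer called without control 1 (-1.43, adjusted p = 0.0522).

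The genes that start clotting did not pass in lung. F3, tissue factor, had 68.9, 41.2, 41.2, 196 and 138 CPM in tumour-bearing lungs, against 166, 225 and 228 CPM in control lungs, with library 4 inside the control range (-1.09, SE 0.50, adjusted p = 0.091, and -1.49 without library 4, adjusted p = 0.0171). F7 showed -0.84 (SE 0.47, adjusted p = 0.15), and the adjacent gene F10 showed 0.69 (SE 0.37, adjusted p = 0.135, and 0.90 without library 5, adjusted p = 0.0253). F2r, the thrombin receptor PAR1, had 148, 459, 462, 155 and 273 CPM in tumour-bearing lungs, against 263, 259 and 249 CPM in control lungs. Its tumour-bearing libraries lay on both sides of the controls (0.22, SE 0.40, adjusted p = 0.66). F13a1, the A subunit of factor XIII, which crosslinks fibrin, showed 0.76 (SE 0.37, adjusted p = 0.103), and 0.94 without library 1 or library 5 (adjusted p = 0.0461 and 0.0435).

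All 3 fibrinogen chains rose in lung. Fga, the alpha chain, had 68.2, 11.9, 3.71, 109 and 4.04 CPM in tumour-bearing lungs, against 0.569, 0.908 and 0.653 CPM in control lungs (change 5.79, SE 1.41, adjusted p = 0.00645, and 4.98 without tumour-bearing library 4, adjusted p = 0.00965). Fgb, the beta chain, had 112, 21.8, 2.03, 102 and 2.05 CPM in tumour-bearing lungs, against 0.179, 0.0168 and 0 CPM in control lungs. The control libraries held 12 counts of Fgb in all, 11 of them in control 1, so the size of its change is loosely set: it was 9.43 (SE 2.10, adjusted p = 0.00406), 12.11 without control 1 (adjusted p = 0.0128) and 2.82 on log2(TPM + 1) with limma (adjusted p = 0.0508). Fgg, the gamma chain, had 35.2, 8.97, 2.62, 54.7 and 1.32 CPM in tumour-bearing lungs, against 1.06, 1.70 and 1.81 CPM in control lungs. Here library 5 lay inside the control range. The change of 3.75 (SE 1.23, adjusted p = 0.0261) was no longer called without control 1, 2 or 3 (3.56, 3.83 and 3.89, adjusted p = 0.0883, 0.0753 and 0.0723) or on log2(TPM + 1) (1.78, adjusted p = 0.14), and was 3.02 without tumour-bearing library 4 (adjusted p = 0.0477).

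Fibrinogen, prothrombin and factor I differed between the tumour-bearing lungs more than most members did. Libraries 1 and 4 were the 2 highest for Fga, Fgb, Fgg and Cfi, and libraries 3 and 5 the 2 lowest for these and for F2. The ratio of the highest to the lowest tumour-bearing library was 55.5 for Fgb, 41.4 for Fgg and 29.3 for Fga, against a median of 3.88 over the 36 members with a value above 0 in every tumour-bearing library. In control lung that median was 1.24. Among the 13 members that fell, the ratio in tumour-bearing lung ran from 1.29 to 6.44.

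A list of 8 genes of hepatocytes, the main source of plasma fibrinogen, also rose: 6 of 8 were higher and none lower. Its summed level was 8362, 2856, 2749, 4696 and 1466 CPM in tumour-bearing lungs, against 326, 347 and 352 CPM in control lungs. Most of that sum was Trf, transferrin, with 5482, 2499, 1752, 3005 and 1023 CPM in tumour-bearing lungs, against 314, 333 and 340 CPM in control lungs. The 2 that did not pass were Ahsg, below the controls in libraries 2, 3 and 5 (0.53, SE 1.24, adjusted p = 0.73), and Cyp2e1, with 0 to 2.68 CPM in tumour-bearing and 6.04 to 6.96 CPM in control lungs (-3.54, SE 1.56, adjusted p = 0.0775). Alb, albumin, had 59.4, 42.8, 6.63, 47.7 and 0.0734 CPM in tumour-bearing lungs, against 0.911, 1.08 and 1.07 CPM in control lungs, so library 5 had less albumin RNA than the controls while its Fga stayed above them. Of transcription factors of gut and liver, 5 of the 5 reported here were higher, with sums of 194 to 315 CPM in tumour-bearing and 14.8 to 18.2 CPM in control lung. The part of these genes in the fibrinogen values was not tested.

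**Figure D3:**
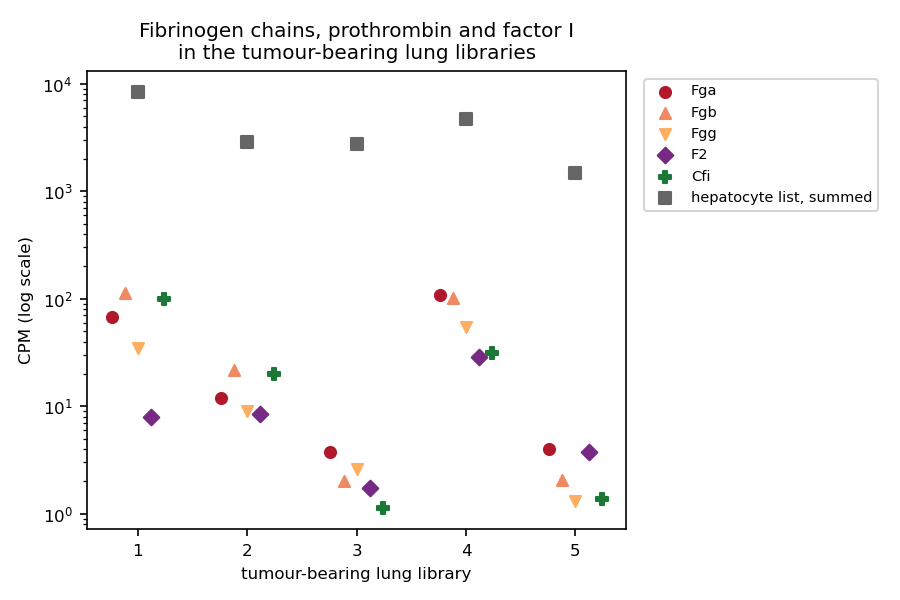
CPM on a log axis of the fibrinogen chains (Fga, Fgb, Fgg), prothrombin (F2), factor I (Cfi) and the summed hepatocyte list in each of the 5 tumour-bearing lung libraries, offset sideways for legibility. Libraries 1 and 4 are highest for the fibrinogen chains and factor I, and libraries 3 and 5 lowest.

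The 3 fibrinolysis members rose in lung. Plau, urokinase, had 12.1, 126, 40.3, 42.5 and 30.4 CPM in tumour-bearing lungs, against 5.95, 6.59 and 6.53 CPM in control lungs (change 2.98, SE 0.69, adjusted p = 0.00497, and 2.32 without tumour-bearing library 2, adjusted p = 0.00176). Plaur, its receptor, had 99.3, 198, 128, 226 and 336 CPM in tumour-bearing lungs, against 66.7, 84.8 and 82.0 CPM in control lungs. Neither gene overlapped between the groups. The change of Plaur, 1.34 (SE 0.38, adjusted p = 0.0127), was no longer called without control 1 (1.25, adjusted p = 0.0503) or on log2(TPM + 1) (0.70, adjusted p = 0.0925). Plat had 179, 243, 78.5, 336 and 682 CPM in tumour-bearing lungs, against 77.6, 89.5 and 88.6 CPM in control lungs, with library 3 inside the control range. Its change of 1.83 (SE 0.60, adjusted p = 0.0256) was no longer called without control 1, 2 or 3 (1.77, 1.86 and 1.85, adjusted p = 0.0793, 0.0723 and 0.0733) or on log2(TPM + 1) (1.05, adjusted p = 0.121).

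All 4 anticoagulant members were called in lung, 2 in each direction. Procr, the endothelial protein C receptor, had 25.4, 51.1, 29.4, 27.9 and 85.6 CPM in tumour-bearing lungs, against 5.66, 5.79 and 6.08 CPM in control lungs (change 2.91, SE 0.46, adjusted p = 0.000582). It rose while the 7 endothelial markers fell, as given above. Serpinc1, antithrombin, had 6.87, 5.55, 2.55, 4.80 and 2.69 CPM in tumour-bearing lungs, against 1.55, 2.49 and 1.49 CPM in control lungs. Its change of 1.29 (SE 0.42, adjusted p = 0.0261) was no longer called without control 1 or 3 (1.19 and 1.15, adjusted p = 0.0965 and 0.103), in a fit of all 14 libraries (1.22, adjusted p = 0.0719) or on log2(TPM + 1) (0.31, adjusted p = 0.147). Tfpi, the inhibitor of the tissue factor pathway, had 13.4, 18.5, 21.4, 7.14 and 13.2 CPM in tumour-bearing lungs, against 38.3, 38.5 and 38.6 CPM in control lungs (change -1.38, SE 0.30, adjusted p = 0.00376). Pros1, protein S, the cofactor of activated protein C, had 29.9, 20.2, 29.4, 16.2 and 11.3 CPM in tumour-bearing lungs, against 108, 110 and 113 CPM in control lungs (change -2.37, SE 0.30, adjusted p = 0.000159).

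**Figure D4:**
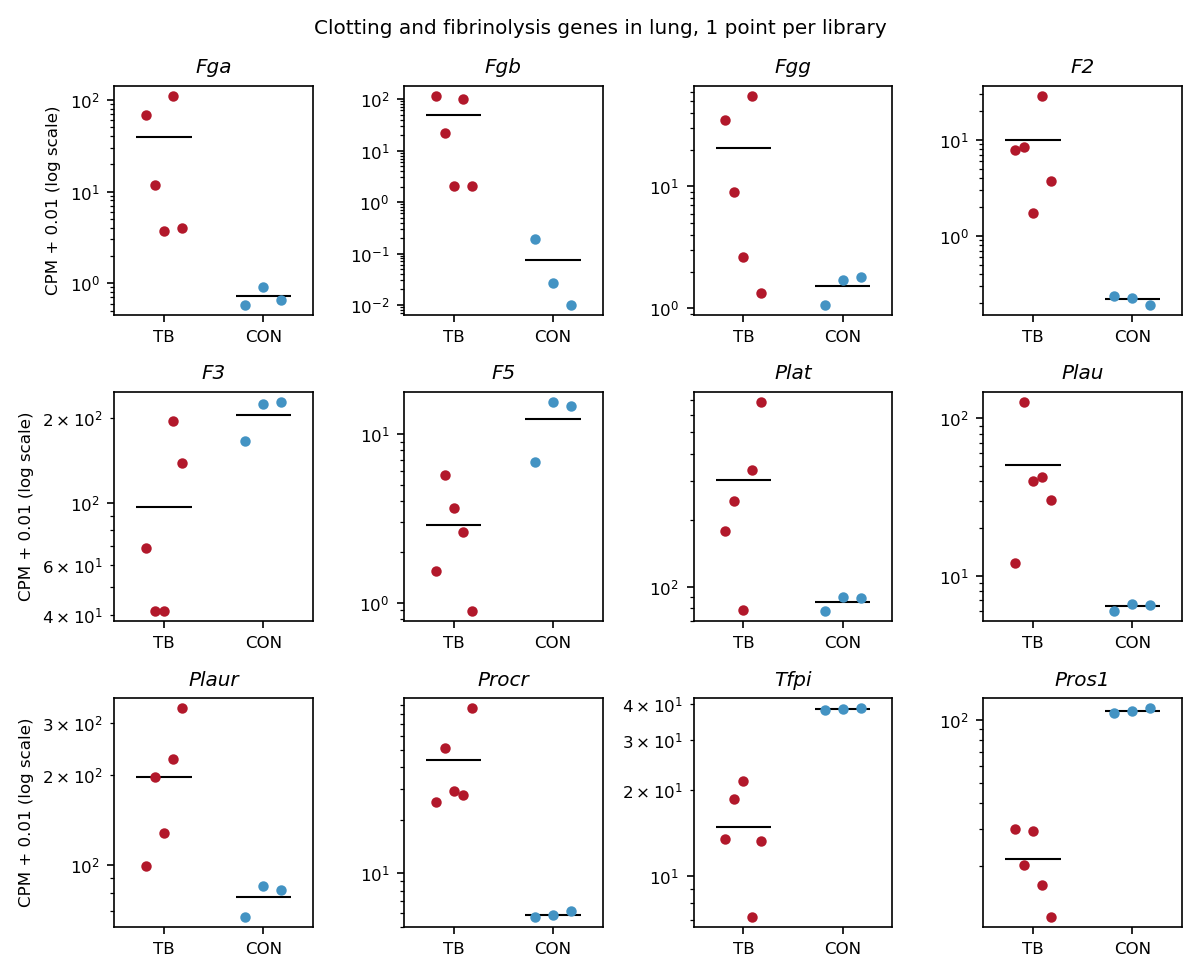
CPM plus 0.01 on a log axis for 12 clotting and fibrinolysis genes in the 5 tumour-bearing (TB) and 3 control (CON) lung libraries, 1 point per library with a line at the mean of each group; axes differ between genes. Fga, Fgb, F2, Plau, Plaur and Procr lie above the controls in every tumour-bearing library, F5, Tfpi and Pros1 below them, and Fgg, F3 and Plat overlap.

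Of 72 other genes of the pathways, 56 were tested in lung, and 14 were higher and 20 lower. That is 60.7% called, close to the 59.7% of all genes, so these counts are no result about the pathway genes either. Among other complement components, 2 were higher and 5 lower of 10 tested, among them Colec12, a scavenger receptor with a collectin-like domain (-3.13, SE 0.13, adjusted p = 8.32e-07), and C1s1, the partner protease of C1r (-3.26, SE 0.26, adjusted p = 1.41e-05). Hc, the mouse C5 gene, came next to these by p and is named because it supplies the first part of the pore. It had 7.74 ± 4.25 CPM in tumour-bearing (n = 5) and 548 ± 7.33 CPM in control lung (n = 3), so C5, C6 and C7 all fell. The C8 and C9 genes of the pore are not given singly here. Of the other inhibitors and receptors, 3 were higher and 7 lower of 18 tested, led by Cd93, an endothelial and myeloid glycoprotein (-4.44, SE 0.18, adjusted p = 8.32e-07), and Vtn, vitronectin, which blocks the pore (-5.13, SE 0.50, adjusted p = 4.12e-05).

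Of the other clotting and platelet genes, 1 was higher and 5 lower of 12 tested, led by Vwf, von Willebrand factor, the carrier of factor VIII (-3.55, SE 0.30, adjusted p = 1.87e-05), and Itgb3, the integrin beta chain that binds fibrinogen (-1.38, SE 0.21, adjusted p = 0.000539). Thrombin receptors and anticoagulants gave 4 higher and 2 lower of 10 tested. Thbd, thrombomodulin, which turns thrombin towards protein C, had 12.9 ± 5.99 CPM in tumour-bearing (n = 5) and 918 ± 22.4 CPM in control lung (n = 3), a change of -6.15 (SE 0.41, adjusted p = 5.77e-06). Proc, protein C itself, had 90.1 ± 47.0 CPM in tumour-bearing (n = 5) and 0.633 ± 0.114 CPM in control lung (n = 3), a change of 7.15 (SE 0.58, adjusted p = 1.6e-05). Within the protein C system, the zymogen and its receptor Procr thus rose while thrombomodulin and protein S fell. Other fibrinolysis genes gave 4 higher and 1 lower of 6 tested: Serpine2, a protease inhibitor, was lower (-1.20, SE 0.12, adjusted p = 5.35e-05) and Anxa2, a cell surface plasminogen receptor, was higher (2.20, SE 0.28, adjusted p = 0.000173).

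In muscle, away from the injected lung, Plaur was higher and Cd59a lower, and no other member was called. Of the 37 members, 28 passed the filter on low counts; 1 was higher, 1 was lower and 26 did not pass, or 7.14% called against 15.3% of the 14373 genes tested (8.53% higher and 6.75% lower). The median log2 fold change was -0.39 over the tested members and -0.03 over all genes. The groups did not overlap in 11 of 28 members, against 43.1% of all genes tested; 3 were higher (background 21.1%) and 8 lower (background 22%). Neither call held under all 13 alternatives.

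Plaur, the urokinase receptor, was the higher one, with 1.4997, 1.67 and 5.09 CPM in tumour-bearing muscle, against 0.537, 0.779 and 0.722 CPM in control muscle. All tumour-bearing values were above the controls and library 3 was the highest. The change was 2.01 (SE 0.54, adjusted p = 0.0402). It was no longer called without tumour-bearing library 3 (1.24, adjusted p = 0.0781), without control 1, 2 or 3 (1.86, 2.12 and 2.05, adjusted p = 0.122, 0.119 and 0.132), with upper-quartile scaling (1.80, adjusted p = 0.0643) or on log2(TPM + 1) (0.85, adjusted p = 0.0537). Neutrophil markers moved with it. Of the 8 listed, 4 were tested and all 4 were higher. The sum of the list was 6.07 to 8.06 CPM in tumour-bearing and 0.859 to 2.09 CPM in control muscle. Macrophage and monocyte markers moved in part, with 1 of 10 higher and 3 lower. Alveolar macrophage markers had 2 of 3 tested higher. The part of any of these markers in the Plaur value was not tested.

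Cd59a was the lower one, with 17.6, 20.0 and 34.0 CPM in tumour-bearing muscle, against 43.9, 48.3 and 57.8 CPM in control muscle. Its change of -1.07 (SE 0.31, adjusted p = 0.0495) was at the threshold, and it was no longer called without control 1, 2 or 3 (-1.15, -1.10 and -0.95, adjusted p = 0.112, 0.154 and 0.17), without tumour-bearing 1 or 2 (-0.87 and -0.94, adjusted p = 0.0914 and 0.0737), with RLE scaling (-1.04, adjusted p = 0.053), in a fit of all 14 libraries (-1.14, adjusted p = 0.0738) or on log2(TPM + 1) (-0.93, adjusted p = 0.204). Its copy Cd59b was also lower, at 0.796 ± 0.569 CPM in tumour-bearing and 3.16 ± 0.247 CPM in control muscle (n = 3 each; change -2.002, SE 0.57, adjusted p = 0.0471). Cd59a also fell in lung, and its tumour effect was not shown to differ between the tissues (lung minus muscle -1.12, SE 0.56, adjusted p = 0.132).

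Several members stood apart between the muscle groups without passing. C4b had 10.1, 11.4 and 21.3 CPM in tumour-bearing muscle, against 5.24, 5.66 and 9.73 CPM in control muscle (1.05, SE 0.38, adjusted p = 0.0868). Plau had 8.55, 11.4 and 6.17 CPM in tumour-bearing muscle, against 19.4, 16.6 and 13.4 CPM in control muscle (-0.92, SE 0.31, adjusted p = 0.0696, and -1.14 without tumour-bearing 2, adjusted p = 0.0263). Neither pair of groups overlapped, and the signs are opposite to those in lung. F8 stood at 0.424 to 1.09 CPM in tumour-bearing and 0.240 to 0.344 CPM in control muscle (1.34, SE 0.51, adjusted p = 0.0957), and C1qa at 9.26 to 15.99 CPM in tumour-bearing and 16.7 to 23.2 CPM in control muscle (-0.68, SE 0.29, adjusted p = 0.131). Cfd, with 5.74, 10.6 and 21.4 CPM in tumour-bearing muscle, against 13.04, 22.4 and 41.0 CPM in control muscle, overlapped (-1.022, SE 0.53, adjusted p = 0.198). The remaining tested members had adjusted p from 0.116 to 0.971. Among them C1qc, C3ar1, F2r, F3 and Pros1 were also below the controls without overlap. The shares without overlap over all genes are given above.

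**Figure D5:**
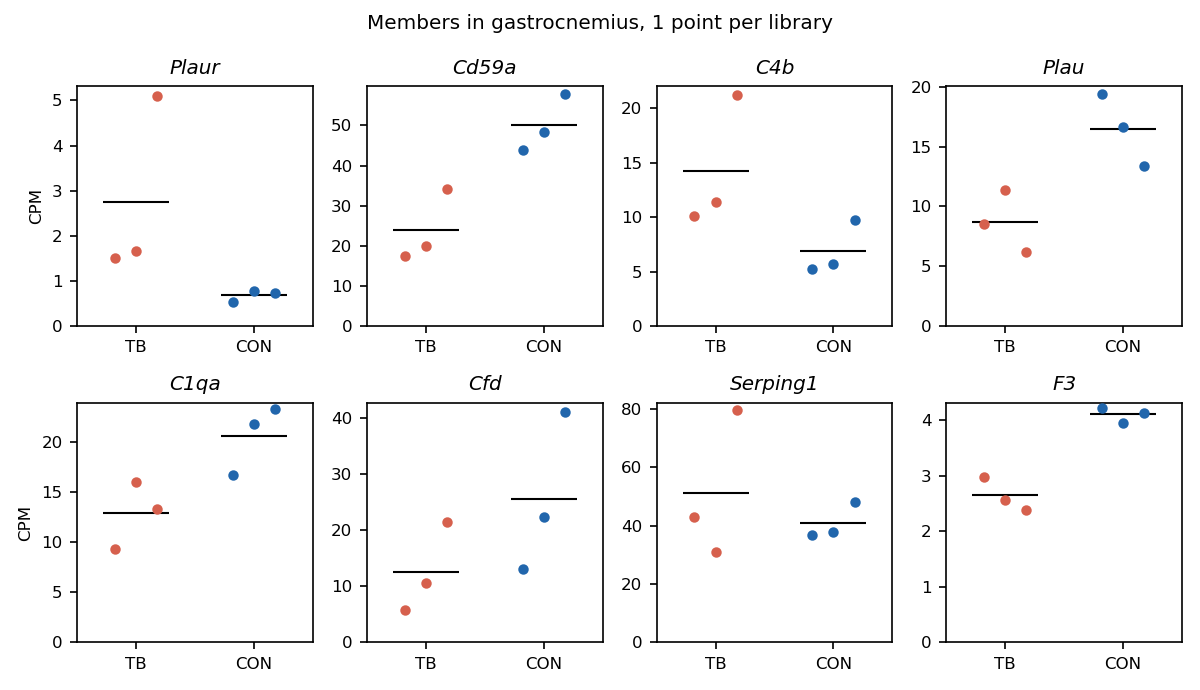
CPM of 8 members in the 3 tumour-bearing (TB) and 3 control (CON) gastrocnemius libraries, 1 point per library with a line at the mean of each group, on axes that start at 0. Plaur and C4b lie above the controls and Cd59a, Plau, C1qa and F3 below them in all 3 tumour-bearing libraries, of which Plaur and Cd59a passed the test; Cfd and Serping1 overlap.

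The 9 members not tested in muscle were C6, Cfi, F2, F5, F7, F10, Fga, Fgb and Fgg. Factor I and all 3 fibrinogen genes had 0 counts in all 6 muscle libraries, which allows up to 0.0679 to 0.0924 CPM per library. F2 had 17 counts over the tumour-bearing and 17 over the control muscle libraries, and C6 had 5 and 3. The largest rises of tumour-bearing lung were therefore among genes that were not detectable, or barely so, in muscle of either group.

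Among the 72 other pathway genes, 30 were tested in muscle, and 1 was higher and 7 lower, or 26.7% called against 15.3% of all genes (8.53% higher and 6.75% lower). C1s1 (-1.09, SE 0.28, adjusted p = 0.0352) was the call among 5 other complement components tested, and Fcna, ficolin A, did not pass (-0.996, SE 0.43, adjusted p = 0.134). Vtn (-1.64, SE 0.32, adjusted p = 0.0173) and Cd59b were the 2 called of 10 other inhibitors and receptors. Of 8 other clotting genes tested, Ggcx, the vitamin K-dependent carboxylase, was lower (-1.80, SE 0.44, adjusted p = 0.0312) and Vkorc1, which recycles vitamin K, did not pass (-1.40, SE 0.41, adjusted p = 0.0513). Thbd (-1.15, SE 0.39, adjusted p = 0.0737) and F2rl1, the receptor PAR2 (-1.46, SE 0.62, adjusted p = 0.128), did not pass, nor did the third gene tested of their list. Of the 4 other fibrinolysis genes tested, 3 were lower, among them Serpine2 (-1.52, SE 0.34, adjusted p = 0.0239) and Anxa2 (-1.20, SE 0.28, adjusted p = 0.0282), and 1 was higher. Fibroblast markers moved with the lower genes in muscle: 6 of 9 were lower and none higher, with sums of 375 to 1013 CPM in tumour-bearing and 724 to 1601 CPM in control muscle, and their part was not tested. Muscle fibre markers defined the tissue, with sums of 62654 to 109891 CPM in tumour-bearing and 78835 to 87572 CPM in control muscle and 0 of 6 called.

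The difference between the tumour effects was tested in a fit of all 14 libraries, and 17 of the 37 members passed, 8 in the positive direction (higher in lung relative to muscle) and 9 in the negative. That is 45.9% of members, against 35.6% of the 19834 genes tested, 16.6% positive and 19% negative. Cfi, Fga, Fgb and Fgg, the 4 members with 0 counts in all muscle libraries, had no muscle effect to compare and could not pass. C6, F2 and F5 passed although their muscle counts were too low for the test within muscle. Among the 28 members tested in both tissues, 14 passed, 7 in each direction. C7 (-8.43, SE 0.92, adjusted p = 1.29e-05), C4b (-3.87, SE 0.46, adjusted p = 2.51e-05) and Serping1 (-3.82, SE 0.36, adjusted p = 4.36e-06) fell in lung and had positive values in muscle that did not pass (0.05, 1.05 and 0.33). Cfb (3.49, SE 0.61, adjusted p = 0.000581), Plau (3.89, SE 0.81, adjusted p = 0.00212), Procr (2.28, SE 0.55, adjusted p = 0.0056) and Plat (2.41, SE 0.75, adjusted p = 0.0224) rose in lung. None of them passed in muscle. Mean CPM in tumour-bearing and control muscle was 1.86 and 2.40 for Cfb, 8.71 and 16.5 for Plau and 1.41 and 2.07 for Plat. Procr went the other way in muscle, at 11.3 and 7.26 CPM. C1qa (1.56, SE 0.52, adjusted p = 0.03) and C1qc (1.22, SE 0.46, adjusted p = 0.0484) passed here although neither passed within a tissue. Plaur, higher in both tissues, was not shown to differ between them (-0.65, SE 0.63, adjusted p = 0.455). Of the 17 calls, 10 held under all 20 alternatives: C4b, C7, Cfb, Serping1, F2, F5, F8, Plau, Procr and Pros1.

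Control lung and control muscle were compared for the level of each member without a tumour. Of 36 tested members, 22 were higher and 11 lower in lung, or 91.7% called against 81.3% of 18053 genes (44.9% higher and 36.5% lower). Plaur (5.08, SE 0.18, adjusted p = 1.27e-07), F3 (3.86, SE 0.16, adjusted p = 2.43e-07) and Plat (3.59, SE 0.16, adjusted p = 3.37e-07) had the smallest adjusted p among the members higher in lung. All 22 kept that direction on log2(TPM + 1). Of the 11 called lower in lung on TMM-scaled counts, 2 stayed negative on log2(TPM + 1), Cd59a and Plau, at values that did not pass, and 9 turned round, among them the 3 C1q genes. A tested direction between the control tissues is therefore given only for the 22. Among these, Cfi and Fga had 0 counts in muscle and lost their calls in a fit of all 14 libraries (adjusted p = 0.133 and 0.0771). Of the 33 calls, 20 held under all 13 alternatives. The orders by mean TPM given earlier were not tests. Median changes of all genes between the tissues were 0.25 on TMM-scaled counts and 1.66 on log2(TPM + 1).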

How the data were processed

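The submitters' processing notes name Trim Galore, STAR 2.7.9a and RSEM 1.3.3; neither settings, nor strand option, nor genome build are stated there. The authors deposited RSEM expected counts, which need not be whole, and TPM per gene and library. Libraries came from a directional kit with 100-base reads, per the labels. Expected counts were rounded. RSEM divides reads between near-identical copies, so C4b, Cd59a, Cd55 and C1ra are uncertain.

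Total counts were 47947363 to 61087315 in lung and 32476194 to 44169410 in muscle. A count of 0 allows 3 counts, 0.0491 to 0.0924 CPM; such floors cover counting error only. Replicates differed beyond sampling noise (chi-square per degree of freedom 19.5 to 437).

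Each tissue was fitted alone in R 4.3.3 with edgeR 4.0.16 (TMM, filterByExpr, glmQLFit, two-sided glmQLFTest), with Benjamini-Hochberg adjustment over all genes tested and a threshold of 0.05. The interaction used all 14 libraries. SE is the absolute log2 change divided by the square root of F. CPM are TMM-scaled within a tissue. Alternatives were RLE and upper-quartile scaling, DESeq2 1.42.0, limma 3.58.1 on log2(TPM + 1), no filter, the replicate number as a block, all 14 libraries in 1 fit, and leaving out each library. Fits were tested on simulated counts. Same-numbered libraries of tumour-bearing and control groups correlated at -0.0357 to 0.424 in muscle and -0.0329 to 0.0883 in lung. The labels do not pair them, so the numbers were not taken as pairs. In muscle a shared effect of the number is thus left in the spread.

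The members, the 72 other pathway genes and the marker lists were chosen with earlier results of these data known. Named in full are members called in lung, muscle or the interaction whose mean reached 1 CPM in any group, more briefly where changes were small, and the 2 other pathway genes of each sublist with the smallest p in each tissue. Hc, C4a and, in lung, Cd59b were named beyond this rule, Hc as a part of the pore and the others as copies of members. Symbols matched 52083 of 55416 identifiers. Sequences are from RefSeq, GRCm38.p6; GENCODE M21 served only for the names of overlapping genes. Some single results are not reported here.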

Additional observations from a re-analysis of the deposited data

Results flagged for a closer look

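In the 5 tumour-bearing lungs, 4 of 37 members had a library far from the other 4. Chance alone flags about 1 group in 20 where values are normally distributed, a rate that need not hold for skewed CPM. Cfd had 14.3 CPM in library 2, Cd59a 9.34 CPM in library 1, F2 28.4 CPM in library 4 and Plau 126 CPM in library 2, each the highest of its group. F2, Plau and Cd59a kept their calls without that library, and Cfd, not called with it, was called without it.

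The tumour effect differed between lung and muscle, by edgeR's interaction test, in 17 members. The log2 difference, lung minus muscle, was positive for C1qa (1.56), C1qc (1.22), Cfb (3.49), F2 (5.64), Plat (2.41), Plau (3.89), Serpinc1 (2.21) and Procr (2.28). It was negative for C1ra (-2.18), C4b (-3.87), C6 (-5.19), C7 (-8.43), Cd55 (-1.33), Serping1 (-3.82), F5 (-3.54), F8 (-2.84) and Pros1 (-1.83). Of 20 alternatives, the calls of C1qc and Serpinc1 were lost under 14 each, and that of C1qa under 8. Those of Cd55 and Plat were lost under 6 each, and those of C1ra and C6 under 4 each. The other 10 calls held under all 20. C6, F2 and F5 had few counts in muscle, 5 and 3, 17 and 17, and 15 and 5 over the tumour-bearing and control libraries, so the sizes of their differences are loosely set; that of C6 was -9.98 without control muscle 3 and -3.53, no longer called, without tumour-bearing muscle 2.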

How the results depend on the processing

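No lung, muscle or interaction call of a member turned its direction under any alternative run. In lung, members called higher fell to 5 with limma on log2(TPM + 1), which called 3594 genes higher, and ranged from 7 (without control 1) to 16 (without tumour-bearing 5) on leaving out 1 library; members called lower stayed within 1.5 times of 13. In muscle, genes higher and lower were 2093 and 1564 with DESeq2, 157 and 258 with limma, 2253 and 1778 without a filter and 1881 and 1578 with all 14 libraries in 1 fit; upper-quartile scaling gave 760 higher. Leaving out 1 library gave 33 to 2447 higher and 73 to 2066 lower, lowest without control 3 and highest without tumour-bearing 2. Muscle members higher and lower were 0 and 2 with upper-quartile scaling, 2 and 2 with DESeq2, 0 and 0 with limma, 3 and 2 without a filter, 2 and 0 with all 14 libraries, and 0 lower with RLE scaling. With the replicate block, a pairing that the labels do not give, muscle gave 1627 genes higher and 1676 lower, against 1226 and 970 in the main fit. Of the members, 2 were then higher and 3 lower in muscle. In lung the block ended the calls of F8 (-1.38, adjusted p = 0.0699), Fgg (2.62, adjusted p = 0.0607) and Plat (0.83, adjusted p = 0.0967), and for the interaction those of Plat (1.45, adjusted p = 0.0614) and Serpinc1 (2.60, adjusted p = 0.0543). Libraries 1 and 3 of muscle correlated best with their own number and library 2 did not. For the interaction, limma gave 6624 genes lower and 4 members positive and 15 negative, and leaving out 1 library left 4 to 10 positive. Between control tissues, limma called 15092 genes higher and 1287 lower, and 34 members higher and 0 lower; with all 14 libraries in 1 fit 4 members were lower. Reversed there on log2(TPM + 1) were C1qa (1.91), C1qb (2.26), C1qc (2.13), Cfd (0.67), Cfp (1.28), Masp1 (0.63), F13a1 (1.18), Serpinc1 (0.41) and Procr (0.70); the cause was not tested. The median of all genes moved to -0.25 in muscle with upper-quartile scaling, and to -0.23 in lung and -0.33 for the interaction on log2(TPM + 1). Of the 5 leading members by TPM, 3 remained by CPM in either muscle group. Few counts limit C6, F2, F5, F7 and F10 in muscle and Fgb in control lung.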
